A study of Mus musculus with 17 samples.

Results

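Whole kidneys of untreated diabetic db/db mice (Case, n = 6) were compared with whole kidneys of healthy mice (Ctrl, n = 5) across the whole range of gene expression. The mice were chosen by their labels, which made 11 of the 17 mice of the series, and 6 db/db mice that received dapagliflozin were left out. Ctrl mice were male C57BL/6 mice labelled WT, and Case mice were male Leprdb/J db/db mice on the BKS background, which lack the signalling form of the leptin receptor. Both groups entered the experiment at 8 weeks of age and received saline by gavage for 6 weeks. All Case mice differ from all Ctrl mice in strain background and in obesity and diabetes as well as in Lepr, so these cannot be told apart. Each mouse gave 1 library, and the number of reads that fell on each gene was counted. The table held 22561 genes, of which 22558 could be used and 14582 had enough counts to be tested. A level is given as FPKM, the fragments of a gene scaled to its length and to the size of the library, which allows genes of different length to be compared. A change is the log2 fold change of Case over Ctrl ± its SE from edgeR's quasi-likelihood test, and q is its Benjamini-Hochberg adjusted p over all genes tested. Genes are said to have risen or fallen where q was under 0.05, and the call of each such gene held in all 11 fits that left out 1 mouse each unless another number is given.

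The kidney filters plasma in the glomerulus, where podocytes and endothelium form the filter. The proximal tubule then takes back most of the glucose, amino acids, phosphate, bicarbonate and filtered protein, secretes organic anions and cations, and lives mainly on the oxidation of fatty acids. The thick ascending limb, the distal convoluted and connecting tubules and the collecting duct adjust salt, calcium, acid and water. In male mice the proximal tubule also carries a set of genes that follow androgen, and the db/db mouse is a common model of type 2 diabetes and of early diabetic kidney disease.

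The libraries held 14229892 to 17779635 counts. Genes of the mitochondrial genome took 17.9% to 20.42% of the counts in Ctrl and 19.83% to 27.27% in Case (exact two-sided permutation test, p = 0.0173). Case 3 had the highest summed FPKM of macrophage markers (223, against 41.2 to 73 in the other mice). The segment markers Nphs1, Slc34a1, Umod, Slc12a3 and Aqp2 were expressed in all 11 mice. FPKM of Lepr ranged from 0.464 to 1.93 in Ctrl and from 0.659 to 5.4 in Case (change 1.27 ± 0.50, q = 0.11), which checks nothing, because the db allele alters splicing and counts per gene cover all its splice forms.

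At a q under 0.05, 1895 of the 14582 genes passed (13%). Case mice had more of 888 of these (6.09%) and less of 1007 (6.91%). A further threshold of more than 2-fold between the group means of FPKM left 553 genes (3.79%), 340 (2.33%) higher and 213 (1.46%) lower. The number with a q under 0.05 was lowest without Ctrl 3 (1002), and it was 1160 without Ctrl 1, 1150 without Ctrl 2 and 1125 without Ctrl 5. With a term for a possible batch, 4 Ctrl mice and 1 Case mouse whose FPKM and counts did not match in 3 entries of the table, 751 genes passed (314 higher, 437 lower). This term is called the batch term here, and since it holds 4 of 5 Ctrl mice, it and the group can be told apart only in part. It ended 23 of the calls of the 117 genes followed through the alternatives, which were Alas2, Cdkn1c, Rgs5, Slc22a6, Egf, Calb1 (q = 0.0624), Slc8a1 (q = 0.24), Trpv5, Trpm6, Aqp2, Scnn1a, Kcne1, Slc4a1, Ehhadh, Mt2, Mmp14, Ghr, Cry1, Fos, Egr1, Hspa8, Ccnd1 and Atp6v1g3. Fcgrt, Cd14, C7, Slc2a1, Slc2a9 and Slc5a8, named below but outside these 117, lost their calls too. Atp6v1g3, a proton pump subunit of intercalated cells, rose by 0.51 ± 0.13 without this term (q = 0.0249), and its call held in 8 of 11 fits without 1 mouse. Scaling by library totals alone, which moved the median change of all genes from 0.03 to 0.11, called 1241 genes higher and 694 lower, so that 64.1% of the called genes were higher, against 46.9% with the main scaling. Counts scaled to library size did not overlap between the groups in 8.15% of the genes tested, with 3.28% higher and 4.87% lower in Case.

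The counts in each direction are given by the level of expression. Among 3246 genes with a mean FPKM under 1, 177 (5.45%) were higher and 84 (2.59%) lower in Case. At 1 to 10 FPKM there were 7857 genes, of which 536 (6.82%) were higher and 418 (5.32%) lower. At 10 to 100 FPKM lower genes were in the majority, with 159 of 3153 genes (5.04%) higher and 448 (14.2%) lower, and at 100 to 1000 FPKM 16 of 301 genes (5.32%) were higher and 56 (18.6%) lower. Scaled by library totals, the lower genes still outnumbered the higher ones in these bands, with 10.2% against 7.52% and 17.3% against 8.97%. The counts of the bands were much smaller without single Ctrl mice, with 88 higher under 1 FPKM without Ctrl 5, 74 higher and 262 lower at 10 to 100 FPKM without Ctrl 3, and 8 higher at 100 to 1000 FPKM without Ctrl 3 or Ctrl 5. At 1 to 10 FPKM the majority was not stable, with 262 higher and 277 lower without Ctrl 5, 189 and 186 with the batch term, and 165 each with a replicate block. At 10 to 100 FPKM the batch term left 80 higher and 179 lower, and at 100 to 1000 FPKM 9 and 35. Under 1 FPKM it left 36 of each. Of the 25 genes at 1000 FPKM or more, Kap alone passed the test. The median SE was 0.334 under 1 FPKM and 0.132 at 100 to 1000 FPKM, so smaller changes could be called at high levels.

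**Figure D1:**
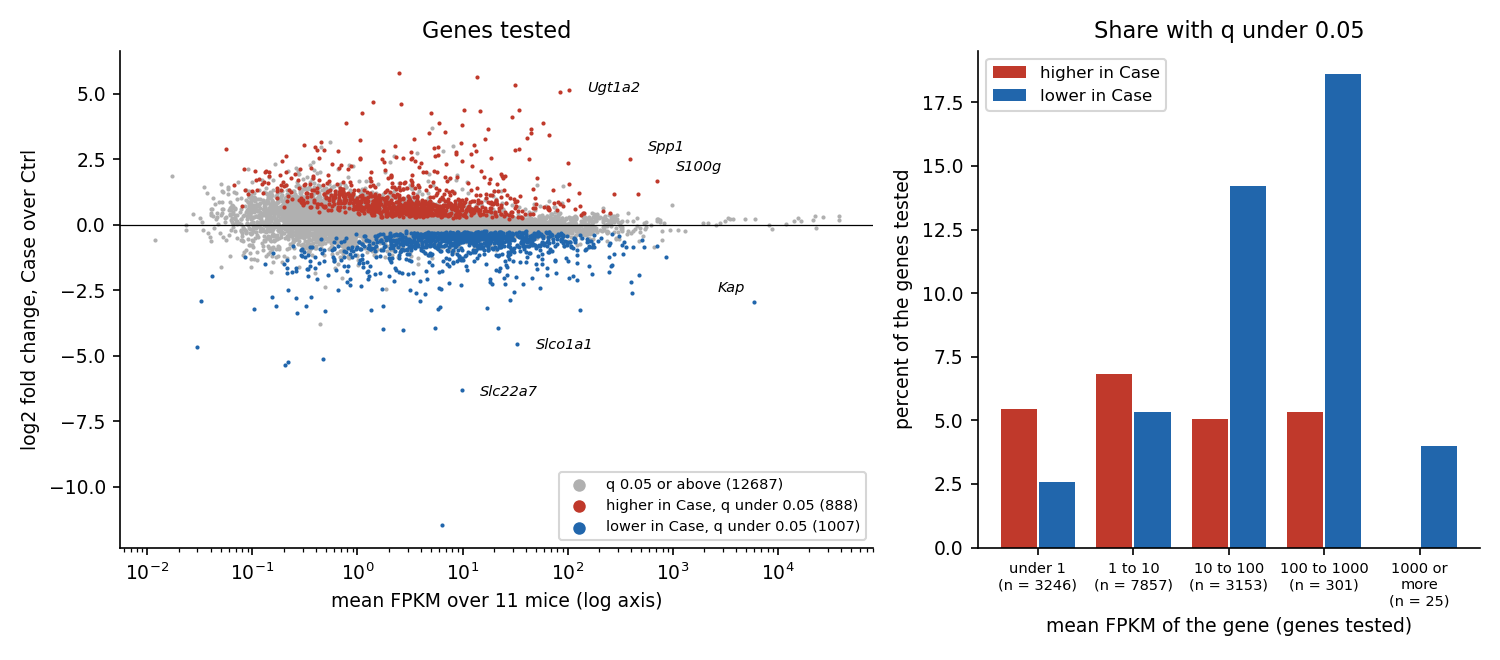
Left, each gene tested by its mean FPKM over 11 mice (log axis) and its log2 fold change of Case over Ctrl, coloured where q was under 0.05. Right, percent of the genes tested in each band of mean FPKM that were higher or lower in Case. Lower genes exceed higher genes from 10 FPKM upward, with 18.6% against 5.32% at 100 to 1000 FPKM.

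The largest fitted change was that of Gm6300, a predicted gene on chromosome 3 (chr3:14363117-14377587, mm10). It had 341, 361, 565, 91 and 351 counts in Ctrl 1 to Ctrl 5 and 0 counts in all 6 Case mice. Set against a floor of 3 counts in each Case library, its level was at least 117-fold lower in Case (q = 0.000476). Kap, the androgen-regulated kidney protein of the proximal tubule and the most abundant gene that changed, had an FPKM of 14848, 12841, 8962, 7702 and 12137 in Ctrl 1 to Ctrl 5 and of 654 to 2708 (median 1384) in Case. Every Case mouse was below every Ctrl mouse, and Kap fell by 2.95 on the log2 scale (SE 0.41, q = 0.0011).

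Slc22a7, the organic anion transporter OAT2, had an FPKM of 13, 30.9, 21.9, 12.4 and 28.1 in Ctrl and of 0.112 to 0.55 (median 0.273) in Case. The groups lay far apart, with a change of -6.32 ± 0.36 (q = 3.57e-06). Below 1 FPKM, Cntnap5a, Col19a1 and Sec14l3 fell (changes -5.36, -5.25 and -5.13), and no Case mouse exceeded 0.0659 FPKM for any of them. Among higher genes of low level, Gm6614 rose from 0.646 to 1.64 FPKM in Ctrl to 4.06 to 19.3 in Case (change 2.91 ± 0.40, q = 0.00106). Alas2, which makes heme in red blood cell precursors, rose from 0.317 to 1.37 FPKM in Ctrl to 1.72 to 14.2 in Case (change 2.52 ± 0.54, q = 0.0112, and 1.96 without Case 3). It is 1 of 9 tested erythrocyte markers, of which 5 rose (55.6%), and their summed FPKM was 89.7 to 149 in Ctrl and 126 to 504 in Case. The rises of this list numbered 1 without Ctrl 1, Ctrl 3 or Ctrl 5 and 3 without Case 3, Case 4 or Case 6, and 0 with the batch term. The sum was highest in Case 3, and the part of blood in these values was not tested.

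Spp1 encodes osteopontin, a matrix protein of injured tubules, and its FPKM was 101, 113, 92.5, 131 and 76.7 in Ctrl and 231 to 1427 (median 485) in Case. The groups did not overlap, and Spp1 rose by 2.52 ± 0.41 (q = 0.00248). Gc, the vitamin D binding protein, rose from 3.34 to 9.38 FPKM in Ctrl to 18.4 to 217 in Case (change 3.65 ± 0.57, q = 0.002). Fgg, the gamma chain of fibrinogen, rose from 4.22 to 9.13 FPKM to 9.95 to 373 (change 3.88 ± 0.86, q = 0.0134). Both were highest in Case 1, and without it their changes were 2.98 and 2.71. Of 10 tested hepatocyte markers, 1 rose (10%; Trf; 0 without Ctrl 1, 2 or 5 and 2 genes without Case 5), and their summed FPKM was 24.5 to 108 in Ctrl and 51.5 to 156 in Case, again highest in Case 1. The defining hepatocyte gene Alb was measured at 8.24 to 12.1 FPKM in Ctrl and 7.18 to 12.3 in Case (q = 0.903).

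In the glomerulus, of 24 tested podocyte genes 4 rose and 2 fell (25%, beside 13% of all genes; such percentages after the counts of a list are the share of its tested genes that passed), with a median change of 0.11, beside 0.03 for all genes. Without Ctrl 1 or Ctrl 3, 2 of these rises passed, and 1 of the falls passed in 8 of the 11 fits, while 1 rose and 1 fell with the batch term. Nphs1 encodes nephrin, the main protein of the slit diaphragm, and had an FPKM of 3.77, 4.46, 4.57, 4.82 and 4.2 in Ctrl and of 5.16 to 8.09 (median 7.18) in Case. No values overlapped, and Nphs1 rose by 0.59 ± 0.10 (q = 0.00361). Cdkn1c, a cell cycle inhibitor of mature podocytes, rose by 0.90 ± 0.18 (q = 0.00688), and Col4a3, a collagen chain of the glomerular basement membrane, fell from 33 to 41.3 FPKM to 18.6 to 36.1 (change -0.57 ± 0.14, q = 0.0186).

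Of 18 tested endothelial genes 3 rose (16.7%), but 0 or 1 of these rises passed in 9 of the 11 fits without 1 mouse. With the batch term 0 rose and 1 fell. Rgs5, a marker of pericytes and smooth muscle, had an FPKM of 11.5, 11.2, 13.1, 17.7 and 14.3 in Ctrl and of 18.5 to 34.4 (median 24.1) in Case. Its groups did not overlap (change 0.81 ± 0.17, q = 0.0107), and it was the 1 gene of 15 tested mesangial, smooth muscle and renin cell genes that rose (6.67%, beside 13% of all genes). Without Ctrl 3 or Ctrl 4 that number was 2, without Case 1 it was 3, and with the batch term it was 0. Ren1, renin, ranged from 24.6 to 91.1 FPKM in Ctrl and from 48.4 to 162 in Case (change 0.66 ± 0.34, q = 0.219).

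**Figure D2:**
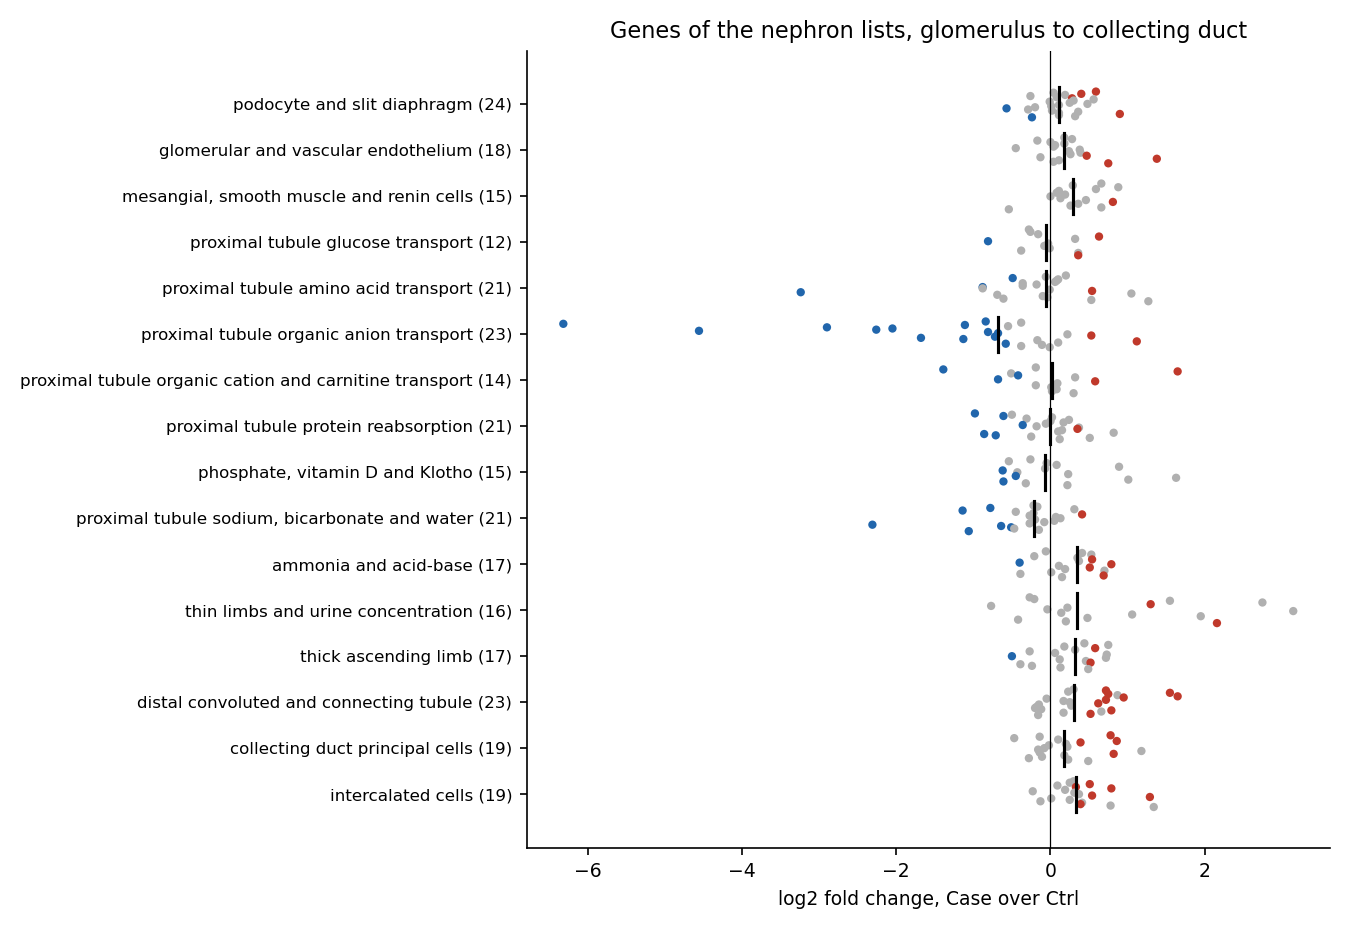
Log2 fold change of Case over Ctrl for each tested gene of 16 lists, ordered from glomerulus to collecting duct, with the number of genes tested in parentheses. Red points rose, blue points fell, grey points did not pass the test, and black bars are medians, lowest for organic anion transport (-0.68) and above 0 in each list from ammonia and acid-base to intercalated cells, except that the median of principal cells (0.18) was -0.15 without Case 3. The medians of the glucose, amino acid, cation, protein reabsorption and phosphate lists lay near 0 and changed sign under other settings.

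All 15 genes that mark proximal tubule identity had a change below 0, and 7 of them fell (46.7%), with a median of -0.56. Their summed FPKM was 8801 to 10026 in Ctrl and 4840 to 9266 in Case, so that the ranges overlapped through Case 4. The lowest sums were those of Case 3 in Case and Ctrl 4 in Ctrl. Markers of other cells had 2 falls in 5 B and plasma cell genes (40%), 1 fall in 4 adipocyte genes (25%), 1 rise in 2 adrenal genes (50%) and none in 3 T and NK cell and 2 neutrophil genes, beside 13% of all genes. Each of these calls was lost in more than 1 of the fits without 1 mouse and with the batch term. In RNA of whole kidney, fewer cells of a type and less RNA per cell cannot be told apart.

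Among the transport lists, that of organic anion transport had the most genes lower in Case. Of 23 tested genes 13 fell and 2 rose (65.2%), and the count of falls was 11 to 14 in the fits that left out 1 mouse and 8 with the batch term. Without Ctrl 1, 2, 3 or 5 or Case 1, 3, 4 or 5 or with the batch term, 1 of the rises passed. Slc22a6, the basolateral transporter OAT1, had an FPKM of 248, 243, 237, 194 and 222 in Ctrl and of 89.3 to 197 (median 119) in Case. Case 4 lay just above the lowest Ctrl mouse and the other Case mice below it, and Slc22a6 fell by 0.84 on the log2 scale (SE 0.22, q = 0.0249), a call that held in 8 of 11 fits (highest q 0.0604, without Ctrl 1). Slc22a8, OAT3, was measured at 120 to 147 FPKM in Ctrl and 51.7 to 172 in Case, and did not pass the test (change -0.38 ± 0.24, q = 0.324).

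Slco1a1, an organic anion transporting polypeptide, had an FPKM of 103, 65, 70.3, 26.3 and 81.8 in Ctrl and of 0.0739 to 11.1 (median 1.88) in Case. Case 5 was the highest Case mouse and still below Ctrl 4, the lowest Ctrl mouse, and the change was -4.56 ± 1.00 (q = 0.0127). Slc22a30 fell by 2.26 on the log2 scale (q = 0.00131) and Slc22a19 by 2.90 (q = 0.000801). Of the 50-base stretches of Slc22a30, 34.2% also occur in transcripts of Slc22a28, Slc22a29 and other relatives, so reads could be split between them.

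Transport of organic cations and carnitine had 3 falls and 2 rises in 14 tested genes (35.7%) and a median of 0.01. Slc22a2, the basolateral cation transporter OCT2, had an FPKM of 116, 118, 119, 90.9 and 115 in Ctrl and of 36.7 to 58.7 (median 41.2) in Case. The groups were separated by more than 30 FPKM, with a change of -1.39 ± 0.15 (q = 0.000221). Slc47a1, the apical exporter MATE1, fell from 124 to 155 FPKM to 82.7 to 116 (change -0.68 ± 0.12, q = 0.00371). Without Ctrl 1 or Ctrl 2, none of the rises of this group passed, and without Ctrl 3, 4 or 5 or Case 1 or 2 only 1 did. The batch term left 1 rise and 2 falls.

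**Figure D3:**
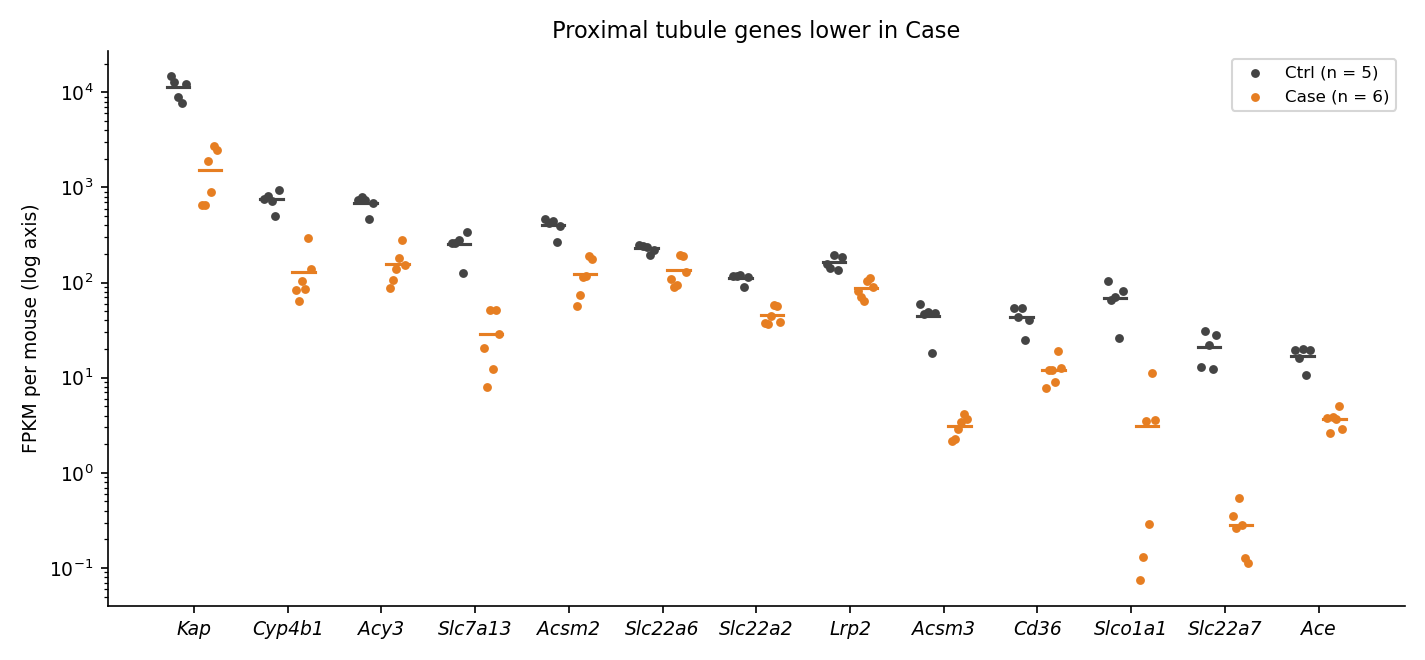
FPKM of 13 proximal tubule genes in each mouse (log axis), with dark points for the 5 Ctrl mice, orange points for the 6 Case mice and bars at the group means. In every gene but Slc22a6 the highest Case mouse lies below the lowest Ctrl mouse, and Kap differs by 11298 against 1539 FPKM in the means.

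In the uptake of filtered protein 5 of 21 tested genes fell and 1 rose (28.6%), with a median of -0.00. Lrp2 encodes megalin, the large endocytic receptor of the proximal tubule, and its FPKM was 156, 143, 197, 137 and 184 in Ctrl and 64.3 to 112 (median 86.1) in Case. No values overlapped, and Lrp2 fell by 0.98 on the log2 scale (SE 0.17, q = 0.00407). Amn, which carries cubilin to the membrane, fell by 0.61 (q = 0.0146), and Lrpap1, the chaperone of megalin, fell by 0.71 (q = 0.00228). Cubn, cubilin itself, had 28.9 to 43.5 FPKM in Ctrl and 17.2 to 36.9 in Case (change -0.50 ± 0.19, q = 0.108). Fcgrt, the Fc receptor for albumin and IgG, fell by 0.36 (q = 0.0432, held in 2 of 11 fits) and was named after its values had been seen. The falls of this list numbered 3 with the batch term and without Ctrl 2, 3 or 5 or without Case 2, 4 or 6. The rise was lost without Ctrl 2, 3, 4 or 5 or Case 1, and 2 genes rose without Case 2.

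Of 21 tested genes of sodium, bicarbonate and water handling in the proximal tubule, 6 fell and 1 rose (33.3%). The count of falls was 6 or 7 in every fit that left out 1 mouse and 4 with the batch term, and the rise was lost with that term and without Ctrl 1, 3 or 5. The genes that fell encode mostly enzymes of the brush border, the folded surface of these cells. Ace, which cleaves angiotensin I, had an FPKM of 19.6, 16, 19.9, 10.6 and 19.4 in Ctrl and of 2.65 to 5.04 (median 3.71) in Case. All Case mice lay below all Ctrl mice, and Ace fell by 2.31 on the log2 scale (SE 0.19, q = 6.59e-05). Car4, the membrane-bound carbonic anhydrase IV, fell by 1.14 (SE 0.11, q = 0.000111), and Ggt1, gamma-glutamyltransferase, fell by 1.06 (SE 0.15, q = 0.00119). The main carriers of sodium and bicarbonate did not pass the test, with a change of -0.22 ± 0.10 for the exchanger Slc9a3 (q = 0.185) and of -0.17 ± 0.19 for the cotransporter Slc4a4 (q = 0.581).

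The main carriers of glucose and phosphate did not pass the test either. Slc5a2, the glucose transporter SGLT2, had an FPKM of 60.7, 72.8, 59, 58.6 and 59.3 in Ctrl and of 26.4 to 85.3 (median 53) in Case. The Case mice spread on both sides of the Ctrl mice (change -0.28 ± 0.24, q = 0.481). In the glucose list 2 of 12 tested genes rose (Slc2a1 and Slc2a9) and 1 fell (Slc5a8), which makes 25%, beside 13% of all genes. Each of these calls was lost without Ctrl 1 or Ctrl 5 and with the batch term. For Slc2a2, the basolateral carrier GLUT2, the change was -0.16 ± 0.12 (q = 0.4). Slc34a1, the sodium phosphate cotransporter of the brush border, ranged from 1324 to 1476 FPKM in Ctrl and from 839 to 1805 in Case (change -0.26 ± 0.19, q = 0.405). Kl, the FGF23 co-receptor Klotho, changed by -0.43 ± 0.15 (q = 0.077), and it passed in 1 of the 11 fits that left out a mouse. Of 15 tested genes of phosphate, vitamin D and Klotho 3 fell (20%), but 0 with the batch term or without Ctrl 1 or Ctrl 3, 1 without Ctrl 2, Ctrl 5 or Case 2, and 6 without Case 5. No gene of that list rose, except 1 without Ctrl 4 or Case 3 and 2 without Case 5.

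Among amino acid carriers, Slc7a13, a carrier of aspartate, glutamate and cystine in the late proximal tubule, had an FPKM of 260, 263, 282, 125 and 343 in Ctrl and of 8.06 to 51.7 (median 24.4) in Case. Its highest Case mouse was below the lowest Ctrl mouse, Ctrl 4, with a change of -3.24 ± 0.45 (q = 0.0011). Slc6a20b, an imino acid carrier, fell by 0.88 on the log2 scale (SE 0.14, q = 0.00232), and Slc43a2 rose by 0.54 ± 0.12 (q = 0.0122). Of 21 tested genes 3 fell and 1 rose (19%, beside 13% of all genes), with a median of -0.06. Without Case 1 5 fell, and with the batch term 2 fell.

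Most genes known to follow androgen in the male mouse kidney fell. Of 23 tested genes 15 fell and none rose (65.2%), with a median change of -1.87, and 14 to 16 fell in the fits without 1 mouse. Without Ctrl 4 or without Case 2, 1 gene rose, and with the batch term 14 fell and 1 rose. Several of them, Kap, Slc22a7, Slco1a1 and Slc7a13, are described above. Odc1, the first enzyme of polyamine synthesis, had an FPKM of 281, 199, 168, 92.4 and 196 in Ctrl and of 33.7 to 71.2 (median 50) in Case, without overlap (change -1.97 ± 0.30, q = 0.0016), and shares 24.3% of its 50-base stretches with predicted genes. Acsm3, a medium-chain acyl-CoA synthetase, had an FPKM of 60, 46.9, 49.1, 18.2 and 47.8 in Ctrl and of 2.16 to 4.15 (median 3.15) in Case, again without overlap (change -3.93 ± 0.30, q = 3.65e-05). Cyp4b1, a cytochrome P450 of fatty acids, fell from 503 to 945 FPKM to 64.1 to 294 (change -2.61 ± 0.36, q = 0.00102). Ctrl 4 was the lowest Ctrl mouse for Kap, Slco1a1, Slc7a13, Odc1, Acsm3 and Cyp4b1.

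Promoters of 3 of these genes and of S100g, a calcium gene that rose in Case, are shown because the first 3 are among the androgen-responsive genes that fell and S100g had the largest rise of the genes of the distal convoluted and connecting tubules. They run from 250 bases before to 50 bases after the start site in RefSeq on GRCm38.p6, the assembly that mm10 names, and are written in the direction of transcription. Capitals mark the hexamer TATAAA on either strand.
Kap promoter, chr6:133853618-133853917, minus strand: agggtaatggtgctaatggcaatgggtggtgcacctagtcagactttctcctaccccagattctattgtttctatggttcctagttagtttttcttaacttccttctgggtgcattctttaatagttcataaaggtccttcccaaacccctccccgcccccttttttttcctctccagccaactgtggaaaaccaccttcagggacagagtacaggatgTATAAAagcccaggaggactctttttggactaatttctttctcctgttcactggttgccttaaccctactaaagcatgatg
Slco1a1 promoter, chr6:141946913-141947212, minus strand: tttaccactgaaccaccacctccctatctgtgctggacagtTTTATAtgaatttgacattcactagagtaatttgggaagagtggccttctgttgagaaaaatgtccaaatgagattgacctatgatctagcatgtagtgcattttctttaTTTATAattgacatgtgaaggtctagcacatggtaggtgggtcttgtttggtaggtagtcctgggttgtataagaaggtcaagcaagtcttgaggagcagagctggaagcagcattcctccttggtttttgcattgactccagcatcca
Acsm3 promoter, chr7:119760673-119760972, plus strand: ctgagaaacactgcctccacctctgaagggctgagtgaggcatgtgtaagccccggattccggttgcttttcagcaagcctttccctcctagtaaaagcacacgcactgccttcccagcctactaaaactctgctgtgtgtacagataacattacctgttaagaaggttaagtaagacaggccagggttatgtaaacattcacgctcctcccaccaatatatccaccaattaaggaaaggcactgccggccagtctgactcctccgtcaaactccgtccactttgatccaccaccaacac
S100g promoter, chrX:162964550-162964849, minus strand: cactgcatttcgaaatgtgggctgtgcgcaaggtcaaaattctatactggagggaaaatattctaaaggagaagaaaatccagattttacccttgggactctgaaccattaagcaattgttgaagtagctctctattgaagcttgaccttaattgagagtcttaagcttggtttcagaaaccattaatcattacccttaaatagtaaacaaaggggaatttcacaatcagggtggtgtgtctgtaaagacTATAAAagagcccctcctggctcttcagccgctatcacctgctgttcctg
TATAAA, searched on both strands, was present once in Kap and in S100g, occurred 2 times in Slco1a1 and was not found in Acsm3. It was held by 7 of the 18 androgen-responsive genes with a promoter in the table (38.9%), by 7.53% of the promoters of all genes tested and by 13.6% of all 32851 promoters of this length. TGTTCT, a half-site of the androgen receptor's element, was also searched on both strands. It was held by 1 of 12 such genes that fell (8.33%), by 2 of 6 that did not (33.3%), by 13% of the promoters of all genes tested and by 19% of all promoters, and these matches are a description of the letters only.

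Of 32 tested genes of steroid metabolism and steroid receptors 7 fell and 2 rose (28.1%). Akr1c14, a 3-alpha-hydroxysteroid dehydrogenase, had an FPKM of 72.3, 67.8, 70.5, 39.3 and 78.3 in Ctrl and of 10.3 to 20.2 (median 13.6) in Case, with no overlap (change -2.27 ± 0.23, q = 0.000219). Hsd17b11, a 17-beta-hydroxysteroid dehydrogenase, fell from 66.9 to 126 FPKM to 25.1 to 36.5 (change -1.93 ± 0.17, q = 7.67e-05). Srd5a2, a steroid 5-alpha-reductase, fell by 1.84 on the log2 scale (SE 0.37, q = 0.00821), with 1.66 FPKM in Ctrl 4 against 5.93 to 7 in the other Ctrl mice and 0.79 to 2.18 in Case.

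In the thick ascending limb 2 of 17 tested genes rose and 1 fell (17.6%, beside 13% of all genes). The potassium channel Kcnj10 rose by 0.52 ± 0.09 (q = 0.00347). Egf, epidermal growth factor, was the 1 fall (change -0.50, q = 0.0239, held in 9 of 11 fits, highest q 0.056 without Ctrl 3). Slc12a1, the cotransporter NKCC2, did not pass the test, with 64.9, 124, 109, 248 and 136 FPKM in Ctrl and 85.7 to 344 (median 194) in Case (change 0.44 ± 0.35, q = 0.435). Umod, uromodulin, was at 317, 671, 554, 1167 and 777 FPKM in Ctrl and at 581 to 2221 (median 1001) in Case (change 0.75 ± 0.38, q = 0.216, and 0.99 with q = 0.117 without Ctrl 4). Both had their highest Ctrl value in Ctrl 4 and their highest Case value in Case 3.

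Slc14a2, the urea transporter UT-A, had an FPKM of 0, 2.2, 0.0706, 1.58 and 0.357 in Ctrl and of 11.3, 6.08, 17.6, 0.112, 0 and 1.57 in Case 1 to Case 6 (change 2.75 ± 1.24, q = 0.162). Of 16 tested genes of the thin limbs and urine concentration 2 rose (12.5%, beside 13% of all genes), and neither rise passed with the batch term or without Ctrl 1, 2, 3 or 5 or Case 1, 2, 3 or 6. Without Case 1 or Case 3, 1 gene of that list fell. How much medulla each kidney sample held is not given in the sources used here, and its part in these values was not tested.

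In the distal convoluted and connecting tubules, 9 of 23 tested genes rose and none fell (39.1%), with a median change of 0.30. The count was 6 to 10 in the fits without 1 mouse and 4 with the batch term. S100g, calbindin-D9k, which binds calcium inside the cell, had an FPKM of 322, 388, 263, 346 and 257 in Ctrl and of 471 to 1648 (median 982) in Case. The lowest Case mouse, Case 3, was above the highest Ctrl mouse, with a change of 1.65 ± 0.29 (q = 0.0039). Calb1, calbindin-D28k, had an FPKM of 45.2, 61.8, 35.8, 62.2 and 36.4 in Ctrl and of 91 to 225 (median 143) in Case. These groups did not overlap either (change 1.55 ± 0.27, q = 0.00347).

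Slc8a1, the sodium calcium exchanger that moves calcium out to the blood side, had an FPKM of 8.02, 12.2, 8.37, 10.1 and 6.38 in Ctrl and of 9.68 to 23.2 (median 19.1) in Case. Case 1 lay within the Ctrl range and the other Case mice above it (change 0.95 ± 0.23, q = 0.0175). The calcium pump Atp2b4 rose by 0.72 ± 0.12 (q = 0.0026). The apical calcium channel Trpv5 rose by 0.75 ± 0.20 (q = 0.0284, held in 7 of 11 fits) and the magnesium channel Trpm6 by 0.72 ± 0.18 (q = 0.0202, held in 8 of 11). Atp2b4, Trpv5 and Trpm6 were named after their values had been seen. Slc16a7, a carrier of lactate and pyruvate, rose from 11.9 to 20.9 FPKM to 21.4 to 30 (change 0.79 ± 0.14, q = 0.00426). Slc12a3, the thiazide-sensitive cotransporter that defines the segment, was at 159 to 199 FPKM in Ctrl and at 181 to 281 in Case and did not pass the test (change 0.30 ± 0.13, q = 0.146).

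**Figure D4:**
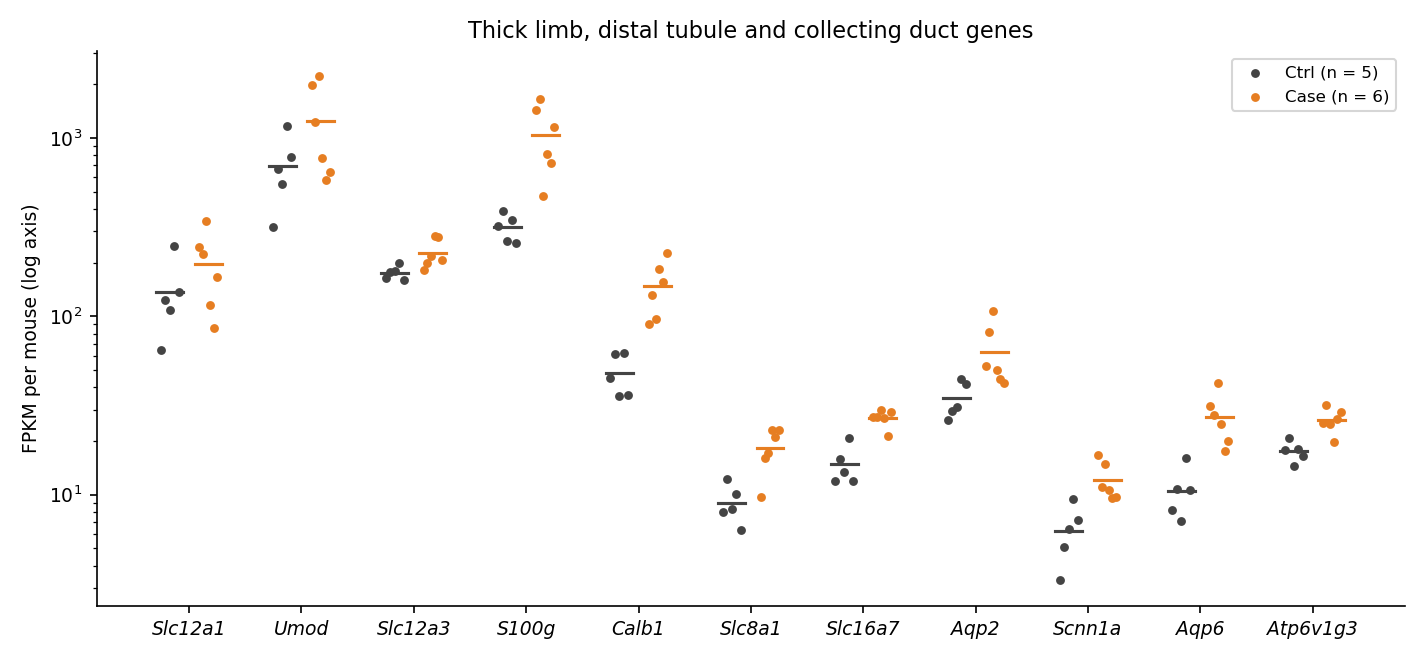
FPKM of 11 genes of the thick ascending limb, distal tubule and collecting duct in each mouse (log axis), with dark points for the 5 Ctrl mice, orange points for the 6 Case mice and bars at the group means. The groups are apart in S100g, Calb1, Slc16a7, Scnn1a and Aqp6, and overlap in Slc12a1, Umod and Slc12a3, which did not pass the test.

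In the collecting duct, 4 of 19 tested genes of principal cells (21.1%) and 6 of 19 of intercalated cells (31.6%) rose, and none fell. The median change of the principal cell genes was 0.18, with 11 of 19 changes above 0, and it was -0.15 without Case 3. Without Ctrl 1, 2 or 5 the number of principal cell genes that rose was 2, and without Ctrl 3 it was 1. For intercalated cells it was 3 without Ctrl 3, Ctrl 5 or Case 2. With the batch term 0 principal cell genes and 3 intercalated cell genes rose. Aqp6, a water channel inside intercalated cells, had an FPKM of 8.19, 10.8, 7.11, 16 and 10.6 in Ctrl and of 17.5 to 42.2 (median 26.5) in Case, without overlap (change 1.29 ± 0.22, q = 0.00371). Slc4a1, the chloride bicarbonate exchanger AE1, which red blood cells carry too, rose from 3.84 to 6.44 FPKM to 7.6 to 12.8 (change 0.79 ± 0.15, q = 0.00601). Rhbg, a channel for ammonia, rose by 0.54 ± 0.10 (q = 0.00598), but shares 60.4% of its 50-base stretches with Gm38392. In the list of ammonia and acid-base genes 4 of 17 rose and 1 fell (29.4%), with 2 rises without Ctrl 3 or Ctrl 5 and 1 with the batch term. Atp6v1b1, a subunit of the proton pump that defines intercalated cells, did not pass the test (change 0.30 ± 0.12, q = 0.105).

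Of the principal cell genes, Kcne1, a potassium channel subunit, rose from 1.57 to 3.6 FPKM to 3.89 to 6.75 (change 0.82 ± 0.20, q = 0.0202). Scnn1a, a subunit of the epithelial sodium channel, rose from 3.31 to 9.44 FPKM to 9.53 to 16.6 (change 0.86 ± 0.22, q = 0.0238, held in 9 of 11 fits, highest q 0.0635 without Ctrl 2). Aqp2, the water channel that vasopressin regulates, had an FPKM of 26.3, 29.6, 31.2, 44.3 and 41.7 in Ctrl and of 42.1 to 107 (median 51.5) in Case. Case 5 and Case 6 lay within the Ctrl range, and the call (change 0.78 ± 0.22, q = 0.0395) held in 5 of 11 fits, with the highest q of 0.0951 without Ctrl 1.

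Of 46 tested genes of fatty acid oxidation 9 fell and 1 rose (21.7%), with a median of -0.19, but without Case 3 2 rose, and with the batch term 5 fell. Cd36, a fatty acid carrier, had an FPKM of 53.6, 43.8, 53.9, 24.7 and 40.8 in Ctrl and of 7.83 to 19 (median 12.1) in Case, without overlap (change -1.92 ± 0.25, q = 0.000696). Acot12, an acyl-CoA thioesterase, fell by 1.20 on the log2 scale (SE 0.20, q = 0.00255) and Ehhadh, the bifunctional enzyme of peroxisomes, by 0.86 (SE 0.17, q = 0.00765). The regulator Ppara (change -0.14 ± 0.22, q = 0.716) and the gate enzyme Cpt1a (change -0.20 ± 0.14, q = 0.369) did not pass the test, and in both the Case mice lay on either side of the Ctrl mice.

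Ketone body and butanoate metabolism had 9 falls and 1 rise in 18 tested genes (55.6%), with a median of -0.49 and 7 to 10 falls in the fits without 1 mouse. Slc16a7, named above, was the 1 rise, 2 genes rose without Case 3, and 5 fell with the batch term. Bdh1, which interconverts the main ketone bodies, had an FPKM of 18.7, 15.9, 17.3, 14.5 and 17.2 in Ctrl and of 4.83 to 7.3 (median 5.74) in Case. The spread within each group was small beside the gap, with a change of -1.58 ± 0.12 (q = 3.65e-05). Aacs, which activates acetoacetate, fell from 24.2 to 43 FPKM to 6.34 to 19.2 (change -1.64 ± 0.27, q = 0.00248), and Acsm2, a medium-chain acyl-CoA synthetase, from 266 to 470 FPKM to 56.4 to 191 (change -1.79 ± 0.30, q = 0.00323).

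**Figure D5:**
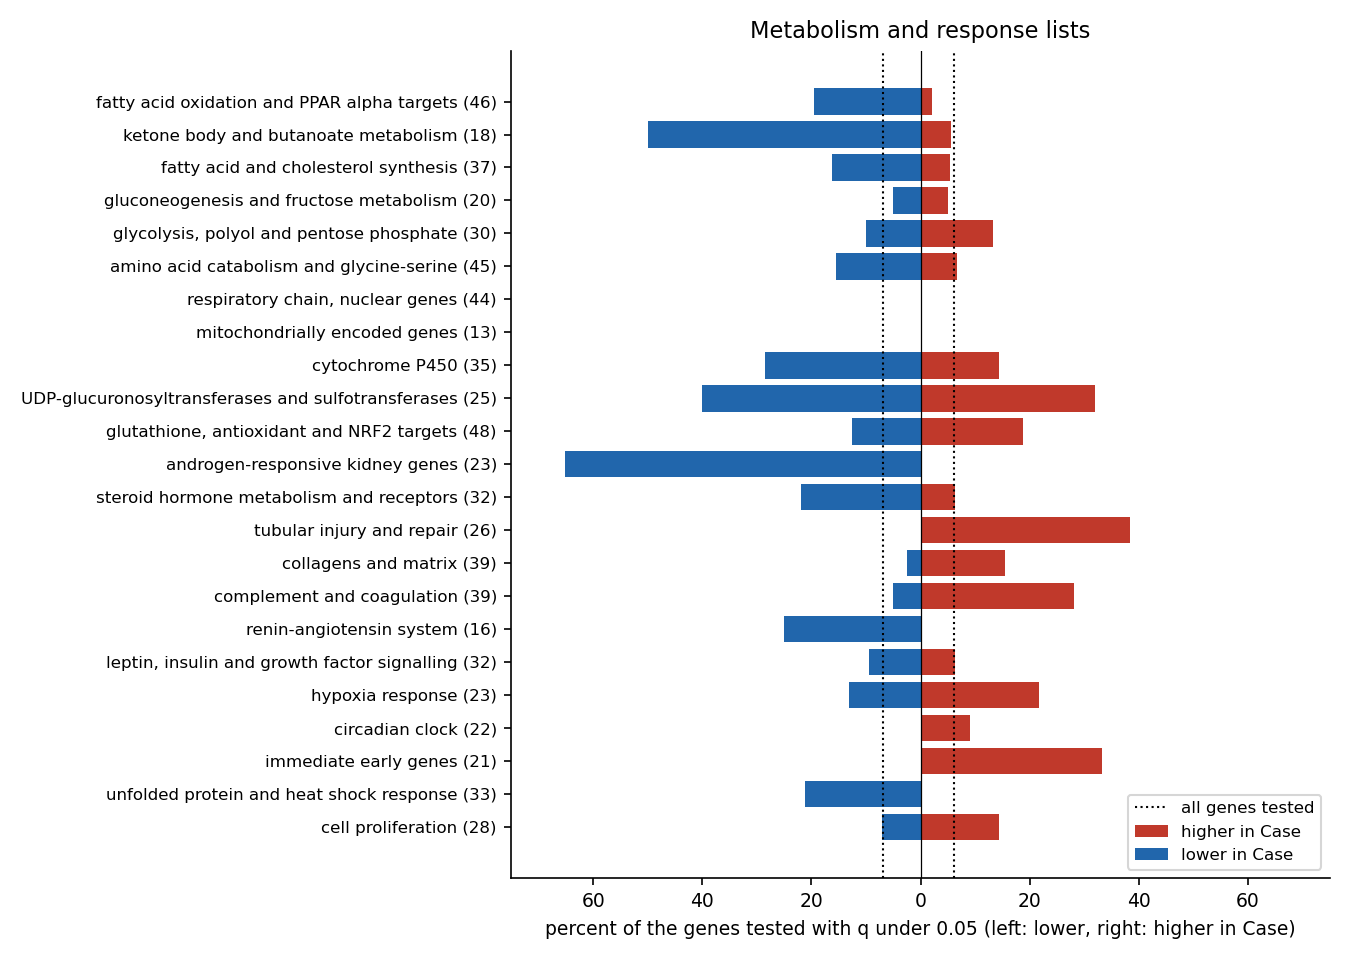
Percent of the tested genes of each metabolism and response list that rose (right) or fell (left) in Case, with the number tested in parentheses. Dotted lines mark the share of all genes tested (6.09% higher, 6.91% lower). Androgen-responsive genes reach furthest to the left, and the respiratory chain lists have no bar.

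In the list of 37 tested genes of fatty acid and cholesterol synthesis 6 fell and 2 rose (21.6%). Cyp51, lanosterol demethylase, had an FPKM of 79.6, 45.1, 61, 35.5 and 45.6 in Ctrl and of 5.3 to 10.2 (median 8.05) in Case. Every Case mouse was more than 3-fold below the lowest Ctrl mouse, and the change was -2.87 ± 0.23 (q = 4.67e-05). Idi1, isopentenyl diphosphate isomerase, fell by 1.40 on the log2 scale (SE 0.20, q = 0.00118) and Me1, malic enzyme, which supplies NADPH, by 1.30 (SE 0.18, q = 0.00101). These share 17.7% and 22.9% of their 50-base stretches with other annotated genes. Of the rises, 1 passed without any single Ctrl mouse, Case 4 or Case 6.

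In gluconeogenesis and fructose metabolism 1 of 20 tested genes rose and 1 fell (10%, beside 13% of all genes), and neither call held in all fits without 1 mouse. Pck1, the rate-limiting enzyme of gluconeogenesis, was at 883 to 1145 FPKM in Ctrl and 435 to 1226 in Case (change -0.21 ± 0.23, q = 0.608). In glycolysis and the polyol and pentose phosphate pathways 4 of 30 tested genes rose and 3 fell (23.3%). The rises numbered 2 without Ctrl 1, 3 or 5 or Case 1 or 2, and the falls 1 without Ctrl 1, 2 or 3 or Case 2 or 4 and with the batch term. Pdk1, the kinase that holds back pyruvate oxidation, had an FPKM of 3.82, 4.32, 3.55, 5.03 and 4.09 in Ctrl and of 8.26 to 12.4 (median 10.4) in Case, without overlap (change 1.23 ± 0.13, q = 0.000221). Pkm, pyruvate kinase, rose from 40 to 74 FPKM to 84.1 to 131 (change 0.86 ± 0.14, q = 0.00304), and shares 25.8% of its 50-base stretches with predicted genes. Ldhd, which oxidises D-lactate, fell from 78.5 to 153 FPKM to 26.6 to 54.9 (change -1.85 ± 0.22, q = 0.000448).

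Of 45 tested genes of amino acid catabolism and glycine and serine metabolism 7 fell and 3 rose (22.2%). Without Ctrl 2 or Ctrl 3 4 fell, without Case 3 5 rose, and with the batch term 2 fell. Cbs and Bhmt, which both use homocysteine, moved in opposite directions. Cbs had an FPKM of 29.1, 32.1, 31.8, 26.1 and 35.9 in Ctrl and of 10.2 to 19.3 (median 13.9) in Case, without overlap (change -1.17 ± 0.15, q = 0.000746). Bhmt had an FPKM of 0.834, 0.917, 0.697, 1.33 and 1.23 in Ctrl and of 1.29 to 10.1 (median 5.18) in Case, where Case 3 lay within the Ctrl range (change 2.43 ± 0.41, q = 0.00303). It shares 25.3% of its stretches with Bhmt2 and other relatives. Kynu, kynureninase, rose from 1.42 to 3.74 FPKM to 4.27 to 9.62 (change 1.48 ± 0.25, q = 0.00347).

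Respiratory chain genes did not pass the test in either genome. By edgeR's test none of 44 nuclear genes and none of 13 mitochondrially encoded genes had a q under 0.05. The medians were -0.03 and 0.19, and 11 of the 13 mitochondrial genes had a change above 0. At an unadjusted p under 0.05 there were 7 nuclear genes, 3 of them higher, and 0 mitochondrial ones. DESeq2 called 1 nuclear gene lower, limma on log2(FPKM + 1) called 2 higher, and neither called a mitochondrial one. Without Case 6, edgeR called 1 nuclear gene lower. For mt-Co1 the FPKM was 32572 to 36722 in Ctrl and 36051 to 45098 in Case (change 0.19 ± 0.15, q = 0.434), and 51.1% of its 50-base stretches also occur in other annotated genes.

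Of 25 tested UDP-glucuronosyltransferase and sulfotransferase genes 8 rose and 10 fell (72%), and of 35 cytochrome P450 genes 10 fell and 5 rose (42.9%). The P450 rises numbered 2 without Ctrl 1, 3 without Ctrl 2 and 1 without Ctrl 3 or Ctrl 5, and 3 with the batch term. Ugt1a2, which conjugates glucuronic acid to lipophilic compounds, had an FPKM of 6.66, 0.744, 6.6, 5.65 and 5.17 in Ctrl and of 60.3 to 380 (median 147) in Case. All Case mice were far above all Ctrl mice (change 5.15 ± 0.65, q = 0.000647). Ugt1a9 rose from 0 to 2.23 FPKM to 5.18 to 104 (change 5.63 ± 1.21, q = 0.0115), and by 4.18 without Case 1 and 8.81 without Ctrl 5. Ugt1a genes share their last exons, and 63.7% of the 50-base stretches of Ugt1a2 and 62% of those of Ugt1a9 occur in other genes, so the split between members is uncertain. All rises of this list but Ugt2b34 were Ugt1a genes, and Ugt1a7c and Ugt1a8 were among the falls. The 8 rises and the 72% therefore rest largely on genes that share sequence and are not separate counts. Ugt2b37 fell from 124 to 233 FPKM to 11 to 93.7 (change -2.02 ± 0.47, q = 0.0155).

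Among the P450 genes, Cyp7b1, an oxysterol hydroxylase, had an FPKM of 12.9, 21.4, 43.7, 37.1 and 49.7 in Ctrl and of 1.05 to 12.9 (median 1.9) in Case. The lowest Ctrl mouse, Ctrl 1, met the highest Case mouse, Case 3 (change -3.19 ± 0.58, q = 0.00459). Cyp2e1, which oxidises ethanol and acetone, fell from 1013 to 1422 FPKM to 407 to 828 (change -1.22 ± 0.18, q = 0.00156). Cyp4a12a fell by 2.40 on the log2 scale (SE 0.27, q = 0.00028), with 48.9% of its stretches shared with Cyp4a12b.

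In the list of glutathione and antioxidant genes 9 of 48 rose and 6 fell (31.2%), and 4 and 2 with the batch term. Gsta2, a glutathione S-transferase, had an FPKM of 8.41, 5.19, 6.12, 18.1 and 12.6 in Ctrl and of 25.6 to 215 (median 110) in Case, without overlap (change 3.42 ± 0.59, q = 0.00361). Of its stretches 49.8% are shared with Gsta1 and predicted relatives. Ephx1, epoxide hydrolase, rose from 10.2 to 15.1 FPKM to 17.9 to 58.5 (change 1.34 ± 0.23, q = 0.00323) and Mt2, a metallothionein, from 31.5 to 49.5 to 54 to 176 (change 1.33 ± 0.29, q = 0.0127). Nqo1, a standard target of NRF2, did not pass (change 0.31 ± 0.11, q = 0.0858, and 0.0407 when scaled by library totals).

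Of 26 tested genes known from injured tubules 10 rose and none fell (38.5%), with a median of 0.71, but 5 rose without Ctrl 1, Ctrl 2 or Ctrl 5, 6 without Ctrl 3 and 4 with the batch term. Clu, clusterin, had an FPKM of 16.3, 14.1, 14.1, 19.1 and 13.2 in Ctrl and of 27.5 to 42.4 (median 37.2) in Case, without overlap (change 1.13 ± 0.13, q = 0.00033). Lcn2, lipocalin-2, had an FPKM of 0.367, 0.1, 0.159, 0.182 and 0.0521 in Ctrl and of 6.61, 3.9, 15.4, 0.672, 0.352 and 0.763 in Case 1 to Case 6. It was highest in Case 3 and met the Ctrl range in Case 5 (change 4.60 ± 1.00, q = 0.0123, and 3.72 without Case 3). Havcr1, the injury marker KIM-1, was at 0 to 0.74 FPKM in Ctrl and 0.0483 to 2.09 in Case (change 0.70 ± 0.87, q = 0.642).

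Of 39 tested complement and coagulation genes 11 rose and 2 fell (33.3%). The rises numbered 6 without Ctrl 1, 7 without Ctrl 2 or Ctrl 5 and 5 without Ctrl 3, and the falls 1 without Ctrl 2, 3 or 5 or Case 2 and with the batch term. C3, the central complement protein, had an FPKM of 5.39, 6.4, 10.1, 6.29 and 4.9 in Ctrl and of 17.5 to 246 (median 32) in Case. The groups did not overlap, and the change was 3.32 ± 0.66 (q = 0.00774), or 2.30 without Case 1, the highest mouse. Macrophage markers had 1 rise in 14 tested genes (Cd14, 7.14%), with summed FPKM of 41.2 to 60.7 in Ctrl and 42.1 to 223 in Case. Interferon genes had 42 rises and 1 fall in 102 (42.2%), with a sum of 246 to 275 in Ctrl and 233 to 2473 in Case, and both sums were highest in Case 3. Without 1 mouse these rises numbered 13 (Ctrl 3), 15 (Ctrl 5), 16 (Ctrl 2), 17 (Ctrl 1) 27 (Ctrl 4 or Case 3) or 54 (Case 6), and 12 with the batch term, and those of the macrophage markers 0 (Ctrl 2, 3 or 5) or 2 (Case 6), and 0 with the batch term. Of 29 MHC and antigen presentation genes 13 rose (44.8%), with 4 without Ctrl 3 or 5, 5 without Ctrl 1 or 2 and 7 without Ctrl 4, Case 1 or Case 3, and 5 with the batch term. Their part in the complement and injury values was not tested.

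Of 39 tested matrix genes 6 rose and 1 fell (17.9%, beside 13% of all genes), and the number of rises was 1 without Ctrl 3, 2 without Ctrl 1, Ctrl 2, Case 2 or Case 3, 3 without Case 4 or Case 6 and 12 without Case 1. With the batch term none rose. Mmp14, a membrane-bound metalloproteinase, rose from 0.743 to 1.2 FPKM in Ctrl to 1.45 to 3.48 in Case (change 1.01 ± 0.20, q = 0.00688). Fibroblast markers were at a summed 18.2 to 33.6 FPKM in Ctrl and 27.7 to 64.5 in Case, with 1 rise in 11 tested genes (C7, 9.09%), and 3 or 4 without Ctrl 3, Ctrl 4, Case 1 or Case 5, and 0 with the batch term.

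The renin-angiotensin list had 4 falls in 16 tested genes (25%) and no rise. Besides Ace, these were peptidases of the same cascade. Prcp fell by 0.62 on the log2 scale (SE 0.09, q = 0.00151) and Mme, neprilysin, by 0.51 (SE 0.11, q = 0.0101). Agt, the precursor, was at 13.2 to 23.3 FPKM in Ctrl and 14.9 to 65.5 in Case and did not pass (change 0.83 ± 0.30, q = 0.0817). Without Case 6 or with the batch term, 1 gene of the list rose.

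Of 32 tested genes of leptin, insulin and growth factor signalling 2 rose and 3 fell (15.6%, beside 13% of all genes). Ghr, the growth hormone receptor, had an FPKM of 48.5, 37.1, 53.5, 35.3 and 47.4 in Ctrl and of 26.6 to 38.2 (median 27) in Case. Case 1 reached the Ctrl range and the other Case mice did not (change -0.69 ± 0.14, q = 0.0098). The other calls of this list were lost in at least 1 of the 11 fits, with 0 rises without Ctrl 3 or 5, 1 without Ctrl 1 or 2 or Case 1, and 4 without Ctrl 4 or Case 5. The falls numbered 1 without Ctrl 1, 2, 3 or 5 or Case 2 or 6. With the batch term 1 rose and 0 fell.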

How the data were processed

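RNA of whole kidneys was sequenced, 1 library per mouse, and groups were taken from the labels. Raw read counts per gene and FPKM were deposited by the authors. Per the submitters' processing notes, reads were aligned with HISAT2 to mm10, and the paper's methods name StringTie for counting reads. The libraries were strand-specific per the labels, but the strand setting of the counting was not given in the sources used here, so whether reads of overlapping antisense genes were separated is not known. FPKM equalled the deposited count divided by length and library total to within 0.002%, and 3 genes whose entries run over 2 lines were left out.

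Counts of 5 Ctrl and 6 Case mice were fitted in R 4.3.3 with edgeR 4.0.16 (TMM factors, filterByExpr, quasi-likelihood test, Benjamini-Hochberg adjustment), with a threshold of 0.05. DEGs also differed by more than 2-fold in mean FPKM. The 6 treated mice were left out of the fits. Their libraries entered only the check of FPKM against counts and the search for entries that did not match. Tested on simulated data for this comparison (14601 genes), the fit recovered 95.4% of 195 genes changed 4-fold, with 7 false calls. Alternatives were DESeq2 1.42.0, limma 3.58.1 on log2(FPKM + 1) and log2(FPKM + 0.1), voom weights, other scalings and filters, a replicate block, terms for a possible batch, and leaving out each mouse.

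The comparison, the gene lists (51) and the genes named were chosen with earlier results of these data known. Named genes were the largest changes without overlap in each level band, the defining genes of each list and up to 4 of its largest called changes, and Lepr. Some genes that met this rule are not reported here. Transcripts were cut into 50-base stretches to find genes that share sequence. Library depth of 14229892 to 17779635 counts limits precision for low genes, and intervals cover counting error and the spread between mice of 1 group only.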

Additional observations from a re-analysis of the deposited data

Results flagged for a closer look

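A value was singled out where the gap from the highest or lowest mouse of a group to its nearest neighbour took up more of the group's range than Dixon's 95% critical value. This held in 34 of 266 groups of values (12.8%), 14 in Ctrl and 20 in Case. Chance gives about 1 in 20 groups only for normally distributed values, and most values here were FPKM without logs. The genes are also not independent of each other, so the share flagged cannot be set against chance.

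Case 3 was the highest Case mouse in the summed FPKM of macrophage (223), T and NK cell (7.98), B and plasma cell (19.3) and erythrocyte markers (504). It was also highest in Case for Alas2 (14.2 FPKM), Havcr1 (2.09), Cyp7b1 (12.9), Slc22a19 (2.55) and Col19a1 (0.0391).

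Case 1 was highest in Case for the summed FPKM of hepatocyte markers (156) and for Fgg (373 FPKM), C3 (246), Gc (217), Ugt1a9 (104), Ghr (38.2) and Cntnap5a (0.0385). Case 5 was highest for Cyp4b1 (294 FPKM) and Slco1a1 (11.1) and lowest for Slc16a7 (21.4), and Case 2 was highest for Cry1 (6.61).

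Ctrl 4 was lowest in Ctrl for the summed FPKM of proximal tubule identity genes (8801) and for Slc22a2 (90.9 FPKM), Ggt1 (78.5), Akr1c14 (39.3), Slc22a30 (30.7) and Srd5a2 (1.66). Ctrl 3 was highest for the summed FPKM of adipocyte markers (139) and for Ppara (14.1 FPKM) and C3 (10.1). Ctrl 2 was highest for Slc5a2 (72.8 FPKM) and lowest for Nqo1 (21.4) and Ugt1a2 (0.744), and Ctrl 5 was highest for Mme (14.4) and Ugt1a9 (2.23). What sets these mice apart was not tested.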

How the results depend on the processing

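Of the 117 genes followed through the alternatives, 94 had a q under 0.05. None of these changed direction under any alternative run, 85 kept their call without each mouse and 65 kept it in every alternative they were tested in. Genes named outside the 117, such as Fcgrt, Trf and Cd14, lost their calls without some mice and are not counted here. The number of genes with a q under 0.05 (1895, with 888 higher and 1007 lower) ranged from 1002 to 2154 without 1 mouse, with 416 to 923 higher and 586 to 1231 lower. The 553 DEGs ranged from 373 to 649 and the 340 higher DEGs from 201 to 413. The number with a q under 0.05 was 2688 by DESeq2, 2290 with voom weights, 1767 with limma on log2(FPKM + 1) and 1572 without a filter.

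Replicate numbers did not pair the mice, since deviations of mice with the same number correlated at -0.088 to -0.038. With a replicate block, which also leaves out Case 6 in effect, 707 genes passed (268 higher, 439 lower), with 292 DEGs, 138 of them higher. The term for the libraries that did not match gave 751 (314 higher, 437 lower), with 294 DEGs, 147 of them higher. A term for the libraries off by over 1%, chosen after seeing the data, gave 1219 (538 higher). The cause was not tested.

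Uncalled changes of a pair of genes turned sign. Havcr1 ranged from -0.23 without Case 3 to 1.21 without Ctrl 1. Alb was at 0.03 with library totals, at 0.02 with limma on both log scales, and between -0.12 and 0.05 without 1 mouse (0.01 without Case 3).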

Other observations

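Of 33 tested genes of the unfolded protein and heat shock response 7 fell (21.2%) and none rose, except 1 without Ctrl 3. With the term for the possible batch 4 fell. The chaperone Dnaja1 had an FPKM of 11, 14.2, 13.8, 9.76 and 14.5 in Ctrl and of 6.46 to 7.74 (median 7.41) in Case, without overlap (edgeR, change -0.89 ± 0.11, q = 0.000696). Hsph1 fell by 1.31 on the log2 scale (q = 0.00828) and Hspa8 by 0.82 (q = 0.0109), with 38.6% of the 50-base stretches of Hspa8 shared with other genes.

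Of 21 tested immediate early genes 7 rose (33.3%), with 4 without Ctrl 2, 2 without Ctrl 3 and 3 without Ctrl 5, and 2 with the term for the possible batch, which ended the calls of Egr1 (q = 0.396) and Fos (q = 0.293). Egr1 had an FPKM of 0.344, 0.892, 0.293, 0.519 and 0.464 in Ctrl and of 0.551 to 5.14 (median 2.97) in Case, with some overlap (change 2.40 ± 0.58, q = 0.0182, held in 10 of 11 fits). Fos rose by 2.80 ± 0.71 (q = 0.0235, held in 8 of 11 fits) and Junb by 1.31 ± 0.26 (q = 0.00821).

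Of 22 tested clock genes 2 rose (9.09%, beside 13% of all genes), among them Cry1 (change 1.37 ± 0.26, q = 0.00585), and 1 or 2 fell without Case 4 or Case 5. With the term for the possible batch 1 clock gene rose, and the calls of Cry1, Ccnd1 and Hspa8 were lost. In the hypoxia list 5 of 23 genes rose and 3 fell (34.8%), with 3 rises without Ctrl 1, 3 or 5 or Case 2 or 3 and 1 fall without Ctrl 1, 2 or 3 or Case 2, 4 or 6, and 3 and 1 with the term. P4ha1, a collagen prolyl hydroxylase, fell by 0.74 on the log2 scale (q = 0.00421). Of 28 proliferation genes 4 rose and 2 fell (21.4%), 1 of them without Ctrl 2, 3, 4 or 5 or Case 1, 2, 4 or 6. With the term 0 rose and 1 fell. Ccnd1, cyclin D1, rose by 0.77 ± 0.15 (q = 0.0078) and Stmn1, stathmin, fell by 0.76 (SE 0.17, q = 0.0126).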
